A study of Rattus norvegicus with 9 samples.

Results

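The circadian clock genes examined here were Arntl, Clock, Npas2, Per1, Per2, Per3, Nr1d1, Nr1d2, Dbp and Tef, 10 of the 17156 genes that the gene tables list, taken by symbol from a fixed list of clock genes. They were read in the livers of 9 male Sprague–Dawley rats, 3 in each of the Normal, Model and TA groups, whose RNA was sequenced after selection for polyA tails. Model rats received carbon tetrachloride (CCl4), a toxin that damages hepatocytes and leads to fibrosis, by stomach tube at 2 ml/kg as an oil solution, in 9 weeks of repeated doses. TA rats received the same CCl4 course and then tormentic acid (TA), a plant triterpenoid, at 3 mg/kg for 6 weeks. Per the design text, the TA livers came from rats whose liver homogenate held TA below 1 μg/ml. Normal rats received saline, and rats of all 3 groups were fasted for 12 h before the liver was taken under pentobarbital. The hour at which each rat was killed is not given in the sources used here, so a difference in hour and a difference in group cannot be told apart in any result that follows.

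The clock is a loop of transcription factors that turns over about once a day in nearly every cell, the hepatocyte included. Arntl (also called Bmal1) pairs with Clock or with its relative Npas2 and switches on Per1, Per2, Per3, Nr1d1, Nr1d2, Dbp and Tef through E-box sequences. The Per proteins then shut Arntl and its partner down, and the Nr1d proteins (Rev-erb alpha and beta) repress Arntl through ROR elements. Over a day Arntl and Npas2 messenger RNA therefore runs roughly opposite to that of Dbp and Per3, and in rats, which eat at night, feeding time sets the phase of the liver clock.

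Sequence upstream of the clock genes was searched for the letters of these elements. The 250 bases before each RefSeq start on the rat build GRCr8 were searched on both strands for the E-box CACGTG, the E-prime box CACGTT, the D-box TTATGTAA (bound by Dbp and Tef) and the ROR core TAGGTCA. All 10 genes matched, Arntl under the name Bmal1, and 4 of them, with 5 of the 12 promoters searched, held at least 1 of these words. Their promoters are printed 5′ to 3′ along the gene because they are the ones in which a search word was found, with the matched letters in capitals.
Arntl, chr1:176766078-176766327 (+ strand): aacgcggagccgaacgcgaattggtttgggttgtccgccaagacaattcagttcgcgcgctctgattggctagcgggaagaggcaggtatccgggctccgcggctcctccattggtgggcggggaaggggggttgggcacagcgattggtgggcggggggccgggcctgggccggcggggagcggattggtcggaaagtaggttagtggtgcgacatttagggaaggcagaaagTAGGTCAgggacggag
Per2, chr9:99496994-99497243 (- strand): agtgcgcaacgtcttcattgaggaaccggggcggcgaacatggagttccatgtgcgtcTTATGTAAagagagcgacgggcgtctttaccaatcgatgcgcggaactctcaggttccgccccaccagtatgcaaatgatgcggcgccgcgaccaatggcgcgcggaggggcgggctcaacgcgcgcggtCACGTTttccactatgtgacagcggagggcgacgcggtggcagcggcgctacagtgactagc
Nr1d1, first start, chr10:84231813-84232062 (- strand): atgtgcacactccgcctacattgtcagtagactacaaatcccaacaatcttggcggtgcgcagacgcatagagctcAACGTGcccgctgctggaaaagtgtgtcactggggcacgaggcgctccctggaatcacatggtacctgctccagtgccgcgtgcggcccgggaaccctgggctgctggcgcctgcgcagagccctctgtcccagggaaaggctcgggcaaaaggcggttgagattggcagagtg
Nr1d1, second start, chr10:84229455-84229704 (- strand): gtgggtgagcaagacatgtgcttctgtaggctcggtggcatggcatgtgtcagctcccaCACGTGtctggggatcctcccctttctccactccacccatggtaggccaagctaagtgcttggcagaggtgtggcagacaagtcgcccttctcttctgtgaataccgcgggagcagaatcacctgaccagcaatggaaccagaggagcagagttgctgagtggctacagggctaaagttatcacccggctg
Tef, chr7:115206577-115206826 (+ strand): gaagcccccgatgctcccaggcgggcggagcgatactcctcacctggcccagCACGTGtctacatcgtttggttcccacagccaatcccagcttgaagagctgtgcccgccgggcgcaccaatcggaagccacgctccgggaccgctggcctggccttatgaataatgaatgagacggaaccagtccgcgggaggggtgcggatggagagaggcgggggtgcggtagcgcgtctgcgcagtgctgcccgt
The ROR core of Arntl lay 16 to 10 bases before the start. In Per2, a D-box lay 192 to 185 and an E-prime box 62 to 57 bases before it. In Nr1d1 an E-box lay 191 to 186 bases before the second start, and an E-prime box, read on the opposite strand, 174 to 169 bases before the first. In Tef an E-box lay 198 to 193 bases before the start. Among 33469 rat promoters of the same length, 5.59% held an E-box, 4.07% an E-prime box, 0.828% a D-box and 2.26% the ROR core. The share holding any of these words was not computed, so the count of clock genes with a word has no like share beside it. A match describes the letters only, and the absence of a match in this window for Clock, Npas2, Per1, Per3, Nr1d2 and Dbp says nothing of sites farther away.

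Dbp and Per3 were the members that differed most between the TA and Model livers, and both were lower in TA. Dbp, a transcription factor driven by Arntl and Clock, averaged 38.5 ± 21.8 CPM (SD, n = 3) in Model livers and 7.77 ± 2.08 in TA livers. Per3, a member of the inhibitory arm, averaged 9.65 ± 2.95 CPM in Model livers and 2.75 ± 0.0367 in TA livers. Arntl, their activator, stood the other way, at 22.6 ± 12.2 CPM in Model livers and 38.5 ± 0.958 in TA livers. CPM here is the read count per 1000000 counts of the library after scaling between libraries by the trimmed mean of M values (TMM), with 1 scale for all 9 livers. With edgeR's quasi-likelihood test and Benjamini-Hochberg adjustment over all genes tested, 0 of the 10 clock genes had an adjusted p under 0.05 in TA VS Model, where 0% of all 12781 genes had one and the smallest adjusted p of any gene was 0.230. Under the rule for differentially expressed genes (DEGs) that the study used, an unadjusted p under 0.05 together with a change of more than 1 on the log2 scale, Dbp and Per3 were DEGs, both lower. That is 2 of 10 clock genes, beside 15.6% of all genes with an unadjusted p under 0.05, 12.3% of all genes that were DEGs and 10.2% that were DEGs with a lower level in TA.

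The libraries held 13156735 to 18090405 counts each. Model 1 stood apart from the other 8 livers: its 50 most abundant genes took 27.9% of the counts, against 40.4% to 45.7% elsewhere, and it was lowest in summed hepatocyte markers. Those markers, 10 of 10 of which passed the filter on low counts, summed to 120400 to 149500 CPM in Normal, 28430 to 101700 in Model and 98490 to 160700 in TA livers. Markers of stellate cells and myofibroblasts (9 of 10 tested) summed to 201.9 to 300.2 CPM in Normal, 1202 to 12490 in Model and 659.4 to 1159 in TA livers. Cholangiocyte markers (7 of 7) reached 18.22 to 31.72, 126 to 2020 and 35.27 to 56.39 CPM in these groups, and macrophage markers (10 of 10) 364.5 to 564.7, 486.8 to 3524 and 408.8 to 920.3 CPM. The stellate cell and cholangiocyte sums did not overlap between any groups. Hepatocyte sums were apart only between Normal and Model livers, and macrophage sums overlapped between all groups. Single macrophage markers also went both ways, 7 of 10 with a log2 fold change above 0 and 3 below 0 in Model VS Normal. The part of these sums in the clock gene values was not tested. In bulk liver, fewer cells of a type and less RNA per cell cannot be told apart.

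**Figure D1:**
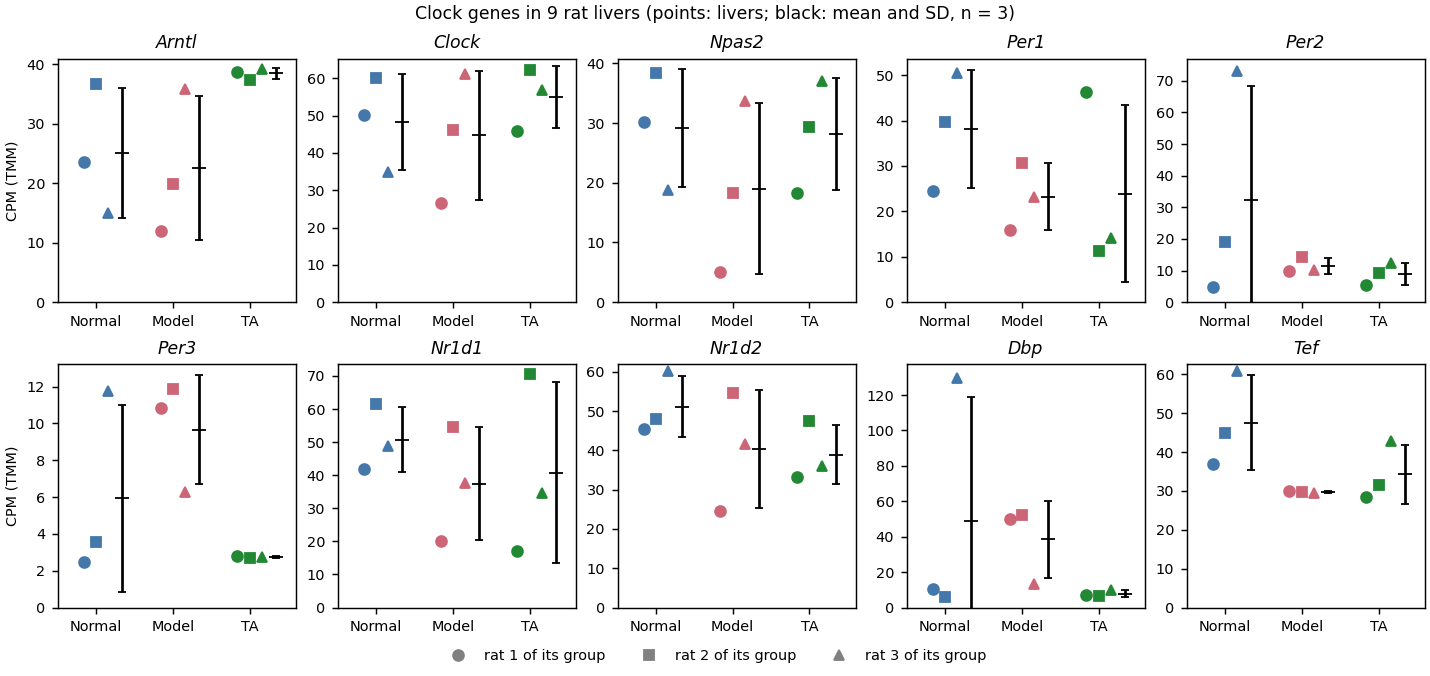
TMM-scaled CPM (vertical axis, from 0) of the 10 clock genes in the 3 Normal, 3 Model and 3 TA livers; each point is 1 liver, its shape gives the rat's number within its group, and the black mark shows the mean and SD (cut at 0 for Dbp and Per2 in Normal livers). The 3 TA livers lie close together for Arntl (37.4 to 39.2 CPM) and Per3 (2.71 to 2.78 CPM), and Normal 3 is far above the other Normal livers for Dbp and Per2.

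Per length of transcript, in the FPKM (fragments by transcript length and library size) that the authors computed, Nr1d1 had the highest median level over the 9 livers, 15.6 (range 6.69 to 24.9). Arntl followed at 10.6 (4.12 to 13.0), Nr1d2 at 9.05 (7.17 to 13.7) and Tef at 8.22 (6.78 to 12.2). Per1 had a median of 6.65 (2.51 to 11.4), Npas2 of 5.97 (1.99 to 8.31), Clock of 5.49 (3.01 to 6.83) and Dbp of 5.46 (2.99 to 62.2). Per2 at 1.95 (0.691 to 10.3) and Per3 at 0.470 (0.325 to 2.83) were the least abundant. Neighbours in this order overlapped in range throughout. Dbp had the widest range, and its highest liver was above the highest liver of every other member.

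Arntl, the DNA-binding activator without which the loop stops, was read at 23.6, 36.7 and 15.0 CPM in Normal livers 1, 2 and 3. The Model livers gave 12.0, 19.8 and 35.9 CPM, and the TA livers 38.7, 37.4 and 39.2 CPM. On this scale all 3 TA livers were above all 3 Model livers, and Normal and Model livers covered much the same range. Normal 2 fell within the range of the TA livers when only these groups were scaled together. In FPKM, which TMM does not enter, TA and Model livers overlapped, Model 3 being at 12.69 beside 11.29 to 12.95 in TA livers. The log2 fold change was 0.78 (SE 0.38) in TA VS Model, with an adjusted p = 0.352. In TA VS Normal it was 0.58 (SE 0.31, adjusted p = 0.649) and in Model VS Normal -0.16 (SE 0.45, adjusted p = 0.845). Without Model 3 the TA VS Model value was 1.29 (adjusted p = 0.0769), and without Model 1 it was 0.48 (adjusted p = 0.645).

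Clock and Npas2 are the partners of Arntl. Clock was read at 50.2, 60.2 and 34.8 CPM in Normal, 26.7, 46.2 and 61.2 in Model, and 45.9, 62.3 and 56.8 in TA livers. Npas2 was read at 30.2, 38.4 and 18.8 CPM in Normal, 5.03, 18.3 and 33.7 in Model, and 18.4, 29.4 and 37.0 in TA livers. Normal 3 was the lowest Normal liver and Model 1 the lowest Model liver for each of Arntl, Clock and Npas2, and the groups overlapped for Clock and Npas2 in every comparison. Clock had log2 fold changes of -0.11 (SE 0.35) in Model VS Normal, 0.30 (SE 0.33) in TA VS Model and 0.15 (SE 0.25) in TA VS Normal. Those of Npas2 were -0.62 (SE 0.60), 0.58 (SE 0.60) and -0.08 (SE 0.33) in the same order. The smallest adjusted p among these 6 values was 0.516, for Npas2 in Model VS Normal.

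The Per genes encode the inhibitors that close the loop, and Per1 and Per2 also respond to hormones and feeding within hours. Per1 was read at 24.5, 39.7 and 50.4 CPM in Normal, 15.9, 30.7 and 23.1 in Model, and 46.3, 11.3 and 14.0 in TA livers. TA 1 was thus high and the other TA livers were the lowest of all 9. Per2 was read at 4.73, 19.1 and 73.0 CPM in Normal, 9.92, 14.4 and 10.2 in Model, and 5.41, 9.31 and 12.3 in TA livers. Normal livers held both the lowest and the highest Per2 of the series, 15.4-fold apart. Per1 had log2 fold changes of -0.71 (SE 0.34, adjusted p = 0.207) in Model VS Normal, 0.05 (SE 0.54) in TA VS Model and -0.70 (SE 0.52) in TA VS Normal. For Per2 they were -1.48 (SE 0.80, adjusted p = 0.255), -0.35 (SE 0.36) and -1.87 (SE 0.81).

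Per3 was read at 2.49, 3.54 and 11.8 CPM in Normal livers and at 10.8, 11.9 and 6.30 CPM in Model livers. The TA livers gave 2.78, 2.71 and 2.76 CPM, from 39, 32 and 37 reads. Every TA liver was below every Model liver, and in Normal livers 1 and 2 Per3 was about as low as in TA livers. Per3 had a log2 fold change in TA VS Model of -1.81 (SE 0.35, adjusted p = 0.230), rank 40 of 12781 genes by p. The unadjusted p was under 0.05 in 14 of 14 alternative fits, with values from -2.32 to -1.64. DESeq2 gave an adjusted p of 8.68e-04 and limma voom with sample weights 0.0462, the only alternatives that took Per3 under 0.05 after adjustment. In Model VS Normal, Per3 had a log2 fold change of 0.71 (SE 0.58, adjusted p = 0.444), which was 1.64 without Normal 3. TA VS Normal gave -1.13 (SE 0.56, adjusted p = 0.613), and -0.18 without Normal 3.

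Nr1d1 and Nr1d2 encode the repressors that act on Arntl. Nr1d1 was read at 41.9, 61.5 and 48.9 CPM in Normal, 20.2, 54.6 and 37.7 in Model, and 17.2, 70.6 and 34.6 in TA livers. The TA group alone held both its lowest and its highest liver, 4.12-fold apart. Nr1d2 was read at 45.4, 48.0 and 60.1 CPM in Normal, 24.7, 54.6 and 41.7 in Model, and 33.3, 47.4 and 36.1 in TA livers. Number 1 was the lowest and number 2 the highest liver of the Model group and of the TA group for each of these genes. Log2 fold changes of Nr1d1 were -0.44 (SE 0.36), 0.13 (SE 0.54) and -0.35 (SE 0.45) in Model VS Normal, TA VS Model and TA VS Normal. Those of Nr1d2 were -0.34 (SE 0.31), -0.05 (SE 0.32) and -0.42 (SE 0.21), and the smallest adjusted p of either gene was 0.450.

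Dbp and Tef encode related leucine zipper factors that carry the clock's rhythm to genes of xenobiotic and lipid metabolism through D-boxes. Dbp was read at 10.4, 5.92 and 129.7 CPM in Normal livers, from 125, 92 and 1545 reads. The Model livers gave 49.7, 52.3 and 13.4 CPM, and the TA livers 6.91, 6.26 and 10.2 CPM. Normal 3, Model 1 and Model 2 were thus high, the other 6 livers were at 13.4 CPM or less, and the lowest Model liver was still above the highest TA liver. The log2 fold change of Dbp in TA VS Model was -2.31 (SE 0.51, adjusted p = 0.230), rank 111 by p. The unadjusted p was again under 0.05 in 14 of 14 alternative fits, with values from -2.86 to -2.02, and the adjusted p was 0.00328 with DESeq2 and 0.0527 with limma voom. In Model VS Normal the value for Dbp was -0.33 (SE 1.06, adjusted p = 0.858), and 2.21 (adjusted p = 0.153) without Normal 3. Against Normal livers TA livers gave -2.66 (SE 1.03, adjusted p = 0.445), and -0.10 without Normal 3, the other Normal livers being at 10.4 and 5.92 CPM beside 6.26 to 10.2 CPM in TA livers.

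Tef was read at 37.0, 44.9 and 60.9 CPM in Normal livers and at 30.0, 29.6 and 29.6 CPM in Model livers. The TA livers gave 28.6, 31.5 and 42.9 CPM. On this scale every Model liver was below every Normal liver, and the Model livers differed by 1.01-fold at most. In FPKM the Model livers were at 12.17, 8.22 and 7.47 and overlapped the Normal livers, at 7.51, 9.27 and 11.93. The log2 fold change in Model VS Normal was -0.68 (SE 0.24), and with an adjusted p of 0.115 it did not pass the test. It was -0.49 (adjusted p = 0.209) without Normal 3. With library totals in place of TMM scaling it was -0.04 (adjusted p = 0.927), the median of all genes then standing at 0.65. For Tef the value in TA VS Model was 0.21 (SE 0.23, adjusted p = 0.660) and in TA VS Normal -0.50 (SE 0.25, adjusted p = 0.605).

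**Figure D2:**
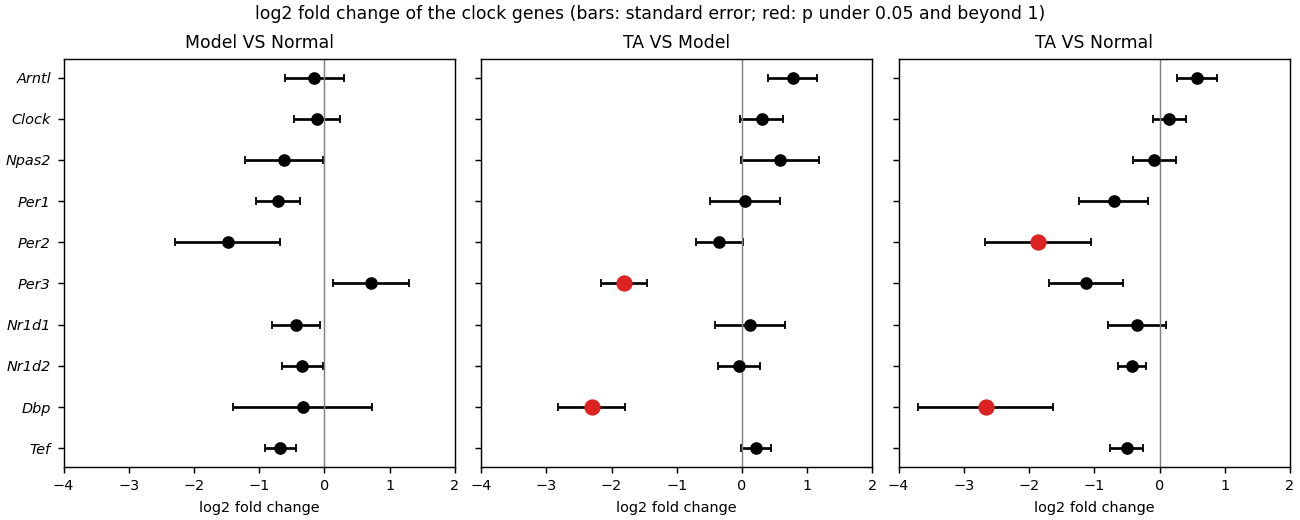
Log2 fold change (horizontal axis, one scale in all panels) of each clock gene in Model VS Normal, TA VS Model and TA VS Normal, with bars for the standard error; red points have an unadjusted p under 0.05 and a change beyond 1. Dbp and Per3 are red in TA VS Model at -2.31 and -1.81, and Dbp and Per2 in TA VS Normal at -2.66 and -1.87, the latter pair resting on Normal 3.

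Model VS Normal asks what fibrosis went with. In it, 9 of the 10 clock genes had a fold change below 0, and their median log2 fold change was -0.39 against 0.02 for all genes. That tally depended on the scaling: with library totals 4 of 10 were below 0 (median 0.15, all genes 0.65), and with limma voom 6 of 10 (median -0.05). No clock gene passed: 0 of 10 had an adjusted p under 0.05, against 7.87% of 12730 genes, and 0 of 10 were DEGs, against 22.1%. Tef was the only member with an unadjusted p under 0.05 (28.9% of genes) or with groups that did not overlap on the TMM scale (38.2% of genes). With limma voom, Per3 was higher in Model livers at 1.62 (adjusted p = 0.0210).

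TA VS Model asks what TA treatment went with after CCl4. Its fold changes were above 0 in 6 members and below 0 in 4, with a median of 0.09 against -0.0038 for all genes. With library totals 2 were above 0 and 8 below, the median of all genes then being -0.48. Arntl, Dbp and Per3 had groups that did not overlap on the TMM scale, 3 of 10, beside 23.1% of all genes. In FPKM the groups overlapped for Arntl, and not for Dbp and Per3. Both main comparisons use the same 3 Model livers, so the high Dbp of Model 1 and Model 2 enters each of them.

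TA VS Normal asks how near the treated livers were to untreated ones. Of the clock genes 0 of 10 had an adjusted p under 0.05 (0.263% of 12179 genes), and 0 of 10 had groups that did not overlap (15.1%). Dbp and Per2 were DEGs and the only members with an unadjusted p under 0.05 (9.43% of genes), 2 of 10 beside 5.25% of all genes, or 1.02% in the lower direction. Each rested on Normal 3: without it the log2 fold change was -0.10 for Dbp and -0.45 for Per2 and neither was a DEG. In this comparison livers with the same number deviated together, though the labels pair no rats. With the number as a block, an alternative inferred from these data, Per2 alone remained a DEG, at -1.28 (adjusted p = 0.216), while Dbp was at -1.49 (adjusted p = 0.323). The block took Arntl to 0.67 (adjusted p = 0.221), Nr1d2 to -0.43 (adjusted p = 0.234) and Tef to -0.49 (adjusted p = 0.106), all with an unadjusted p under 0.05 that they did not have without it.

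Several clock genes varied more between rats of the same group than most genes did. The SD of log2 CPM within groups, pooled over the 3 groups, was 1.52 for Dbp, above 99.2% of the 12998 genes tested over the 9 livers. It was 1.19 for Per2 (96.7%) and 0.90 for Npas2 (89.1%), while the median over all genes was 0.45. Per1, Nr1d1, Per3 and Arntl lay between 0.59 and 0.75, so 7 of the 10 clock genes were above that median. Clock at 0.44, Nr1d2 at 0.39 and Tef at 0.27 were below it.

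The spread was not even over groups. Normal livers spread most in Dbp (SD 2.36) and Per2 (SD 1.95). In TA livers Per3 (SD 0.018) and Arntl (SD 0.036) had some of the smallest SDs on the TMM scale, only 0.223% and 1.08% of genes having a smaller one there. Per3 was read there from 39, 32 and 37 reads, whose counting error exceeds that SD, so the SD cannot show that these rats were alike. In FPKM the TA livers ran from 0.376 to 0.427 for Per3 and from 11.29 to 12.95 for Arntl. In the same TA livers, Per1 (SD 1.09) and Nr1d1 (SD 1.02) were wider than 94.7% and 93.2% of genes. An SD from 3 livers is itself imprecise, and these percentiles are a description with no test.

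**Figure D3:**
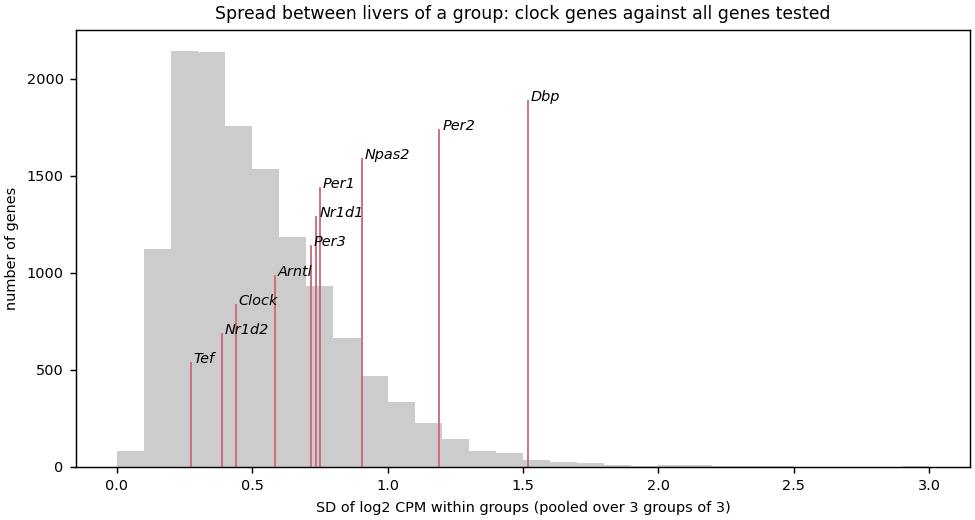
Grey bars count genes (vertical axis) by the SD of log2 CPM within groups (horizontal axis), and red lines mark the 10 clock genes at heights chosen only to keep the names apart. Dbp at 1.52 and Per2 at 1.19 are in the right tail and Tef at 0.27 is on the left.

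Ordering the 9 livers by Arntl showed how the arms of the clock stood to each other within single animals. On the TMM scale the 3 livers with the least Arntl, Model 1, Normal 3 and Model 2, had the most Dbp and the most Per3. TA 1, TA 2, TA 3 and Normal 2, which had the most Arntl, had the 4 lowest Dbp values, though TA 3 and Normal 1 were close at 10.2 and 10.4 CPM. Normal 3 therefore shared low Arntl with high Dbp and Per3 with the Model livers 1 and 2, and Model 3 shared high Arntl with lower Dbp with the TA livers. The split ran across the study's groups in this way except that no TA liver was on the low-Arntl side. In FPKM, which TMM does not enter, Normal 3, Model 1 and Model 2 still led in Dbp and Per3, but the order of Arntl changed. Normal 3 was lowest at 4.12, and Normal 1, low in Dbp at 5.15, came next at 6.70. Model 1 followed at 6.81 and Model 2 at 7.70, and Model 3 at 12.69 was above TA 2, TA 3 and Normal 2.

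**Figure D4:**
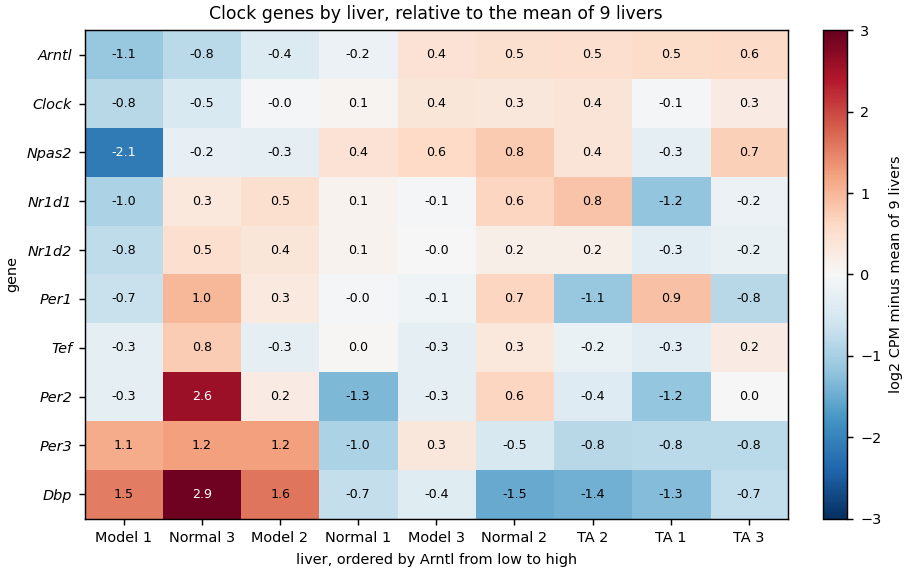
Each cell gives the log2 CPM of a clock gene (rows) in a liver (columns) minus the gene's mean over the 9 livers, with livers ordered from low to high Arntl; red is above the mean and blue below. The 3 livers on the left, Model 1, Normal 3 and Model 2, have low Arntl and high Per3 and Dbp, and Nr1d1, Per1 and Tef show no such order.

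Across the 9 livers Arntl ran with its partners, though neither relation passed the test after adjustment. Its correlation with Clock was r = 0.90 (exact permutation p = 0.00180, adjusted p = 0.264 over 12998 genes), with Spearman's rho = 0.58 (exact p = 0.108, adjusted p = 0.892). With Npas2 it was r = 0.79 (exact permutation p = 0.00590, adjusted p = 0.300) and rho = 0.57 (exact p = 0.121, adjusted p = 0.893). Only 0.154% of genes had an r to Arntl as high as Clock, and 1.72% as high as Npas2. After the group means were taken out, r was 0.92 for Clock (exact p = 0.0509) and 0.87 for Npas2 (exact p = 0.0417), from permutations within groups. Without Model 1 and Normal 3, the livers farthest from the median of Arntl, r fell to 0.58 for Clock (exact p = 0.214) and 0.44 for Npas2 (exact p = 0.280). Leaving out the extremes of Arntl narrows its range, which can itself lower r, so this step cannot tell how far the relations rest on those 2 livers.

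Dbp and Per3 ran against Arntl, and here too neither relation passed after adjustment. For Dbp r was -0.88 (exact permutation p = 0.00463, adjusted p = 0.294) and rho was -0.77 (exact p = 0.0214, adjusted p = 0.745). For Per3 r was -0.79 (exact permutation p = 0.0151, adjusted p = 0.316) and rho was -0.63 (exact p = 0.0760, adjusted p = 0.879). An r to Arntl as low as that of Dbp was found in 0.277% of genes, and one as low as that of Per3 in 1.54%. Taking out the group means left -0.81 for Dbp (exact p = 0.0602) and -0.68 for Per3 (exact p = 0.190). Without the same 2 livers r was -0.79 for Dbp (exact p = 0.0393) and -0.57 for Per3 (exact p = 0.109). Within the 6 livers with lower Dbp, r was -0.33.

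No clock gene's relation to Arntl passed the test after adjustment, and for the repressors, Per1, Per2 and Tef it was also weaker over the 9 livers. The r of Arntl was 0.15 with Nr1d1 (exact p = 0.700), 0.07 with Nr1d2 (exact p = 0.868), -0.38 with Per2 (exact p = 0.334), -0.12 with Per1 (exact p = 0.748) and -0.16 with Tef (exact p = 0.696). With rho these were -0.07, -0.25, -0.23, -0.25 and -0.10, and the smallest adjusted p of the 5 was 0.640. The value for Nr1d2 turned on Model 1: without that liver r was -0.80 (exact permutation p = 0.0168, unadjusted), and without Model 1 and Normal 3 it was -0.66 (exact permutation p = 0.0946). Of all 12998 genes none reached an adjusted p under 0.05 in this test, while 14.7% had an unadjusted exact p under 0.05.

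**Figure D5:**
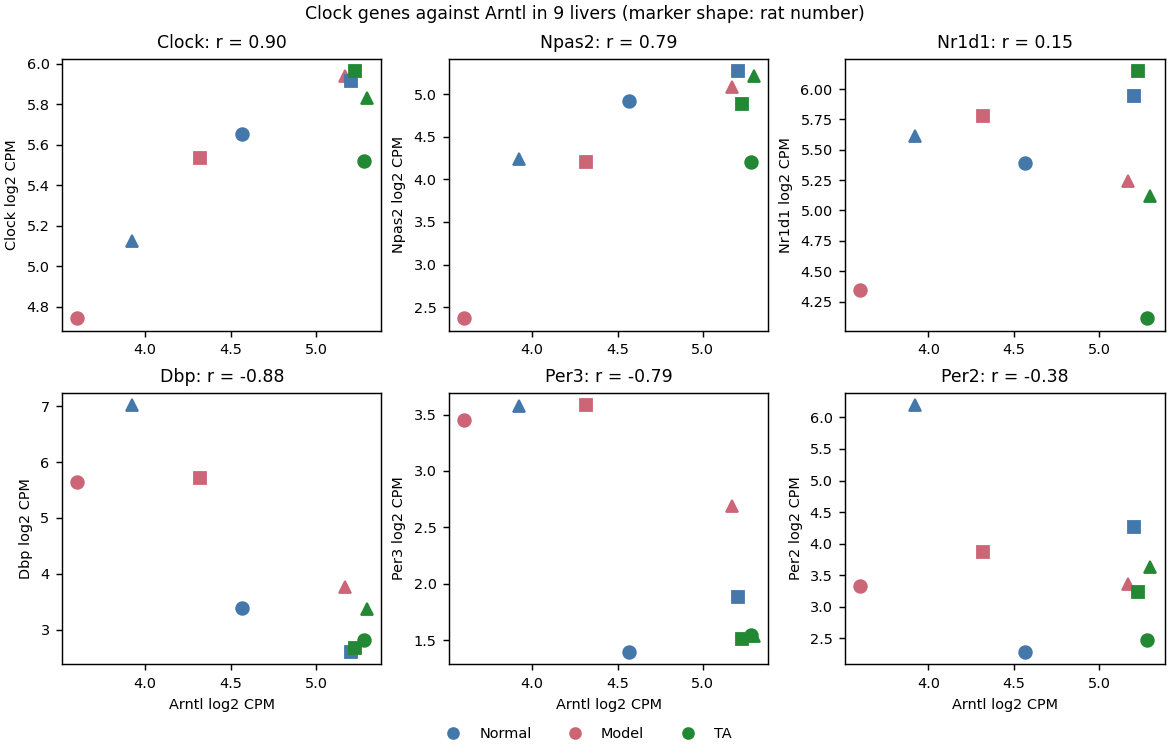
Log2 CPM of 6 clock genes (vertical axes) against that of Arntl (horizontal axes) in the 9 livers, coloured by group, with the marker shape for the rat's number. Clock (r = 0.90) and Npas2 (r = 0.79) are lowest in the liver with the least Arntl, Model 1, and Dbp (r = -0.88) and Per3 (r = -0.79) are high in the 3 livers with the least.

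Among the clock genes, Per3 was the most like Dbp. Over the 9 livers their r was 0.91, a value that 0.0769% of all genes reached with Dbp, and it was 0.93 after the group means were taken out. Per2 followed Dbp at 0.65, Clock stood at -0.76 and Npas2 at -0.59. Of 7958 genes expressed at 3 or more in average log2 CPM, Clock was number 15 in likeness to Arntl. Ahead of it stood Mapk6, an atypical MAP kinase, at 0.97, then Lrig2 at 0.95, Arfgef1 and Tspyl1 at 0.94 and Strbp at 0.93. The lowest were Eif4a3, a core protein of the exon junction complex, at -0.95, Hpf1 at -0.94, Bcl7c at -0.93, Rab4b at -0.92 and Glod4 at -0.91. The genes most like Dbp were Mlkl, the effector of necroptosis, at 0.94, Pspc1 and Fastk at 0.93 and Wdr90 and Ccar2 at 0.92. Those most opposed to Dbp were Eif3j at -0.98, Ccnc at -0.96, Ppp1cb at -0.95, Sun2 at -0.94 and Pigx at -0.93. These are extremes of many genes over 9 livers that share depth, scaling and group, and carry no p.

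The wider circle of clock regulators held 16 further genes, of which 13 were tested in Model VS Normal, 12 in TA VS Model and 11 in TA VS Normal. In Model VS Normal 1 of 13 passed at an adjusted p under 0.05, beside 7.87% of all genes, or 6.86% that were higher: Bhlhe41, which encodes a repressor at E-boxes (also called Dec2). Bhlhe41 was read at 0, 2 and 0 counts in Normal livers and 148, 10 and 13 in Model livers, with 4, 7 and 2 in TA livers. It passed the filter on low counts only through the Model livers and was not tested in TA VS Normal. A higher level in Model livers was thus tied to its being tested at all. The ratio of scaled counts, Model over Normal, was 65.4 (95% exact binomial interval 17.8 to 545, counting error only), and 15.5 (3.83 to 135) without Model 1. For Bhlhe41 the log2 fold change was 5.60 (SE 1.38, edgeR adjusted p = 0.0483), and the adjusted p ranged from 0.00136 to 0.170 over the alternatives, at 0.0773 without Model 1, which also stood apart in its cell markers. Between TA and Model livers Bhlhe41 was at -3.02 (adjusted p = 0.269), and at -1.19 (adjusted p = 0.663) without Model 1.

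Csnk1e encodes casein kinase 1 epsilon, which marks Per proteins for decay. It was read at 13.5, 14.9 and 12.6 CPM in Normal, 29.1, 27.1 and 20.3 in Model and 21.7, 20.6 and 20.1 in TA livers, so that every Normal liver was below all others. The log2 fold change was 0.90 (SE 0.23, adjusted p = 0.0535) in Model VS Normal and 0.58 (SE 0.19, adjusted p = 0.346) in TA VS Normal, and neither passed. Hlf, the remaining relative of Dbp and Tef, was read at 1.99, 3.99 and 5.88 CPM in Normal, 1.08, 1.38 and 2.76 in Model and 4.20, 5.08 and 2.98 in TA livers. Hlf was at 1.24 in TA VS Model (SE 0.49, adjusted p = 0.298), opposite in sign to Dbp.

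The cryptochromes are the partners of the Per proteins. Cry1 was read at 2.58, 5.99 and 3.11 CPM in Normal, 4.13, 1.98 and 5.59 in Model and 5.98, 6.01 and 11.3 in TA livers. Every TA liver was above every Model liver, and the log2 fold change of 0.99 (SE 0.47) had an adjusted p of 0.345. Cry2 had log2 fold changes of -0.34, -0.10 and -0.48 in Model VS Normal, TA VS Model and TA VS Normal. Nfil3, a repressor at D-boxes that counters Dbp, was read at 72.6, 72.0 and 195.6 CPM in Normal, 15.98, 40.8 and 87.7 in Model and 77.4, 88.2 and 136.7 in TA livers. Its log2 fold changes were -1.23 (adjusted p = 0.241), 1.07 (adjusted p = 0.383) and -0.20 in the same order. Number 3 was the highest liver of each group for Nfil3.

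None of the regulators named next passed the test. In Model VS Normal the log2 fold change was -0.89 for Rora, 0.41 for Bhlhe40, -0.43 for Csnk1d, -0.26 for Fbxl21, 0.45 for Timeless and -0.02 for Arntl2. TA VS Model gave 0.68 for Rora, 0.33 for Bhlhe40, 0.24 for Csnk1d, 0.42 for Fbxl21 and -0.90 for Timeless (adjusted p = 0.345). TA VS Normal gave -0.25 for Rora, 0.70 for Bhlhe40, -0.23 for Csnk1d, 0.13 for Fbxl21 and -0.49 for Timeless. Over the regulators tested, the median was -0.02, 0.28 and 0.02 in these comparisons. Of the 12 regulators tested in TA VS Model, 2 were DEGs, Hlf higher and Bhlhe41 lower, beside 12.3% of all genes. Bhlhe41 was tested there only through its Model livers.

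Liver genes known to follow the clock made up a further list of 15 outputs, of which 12 were tested in each comparison. In Model VS Normal 10 of 12 were below 0 with a median log2 fold change of -1.29, and 5 were DEGs (22.1% of all genes), 4 of them lower (5.55%). With library totals 7 of 12 were below 0 and 3 were DEGs. Alas1, the rate-limiting enzyme of heme synthesis, was the only output past an adjusted p of 0.05, 1 of 12 beside 7.87% of all genes. It was read at 187.8, 296.8 and 218.5 CPM in Normal and 44.0, 52.0 and 84.0 in Model livers. Alas1 had a log2 fold change of -1.96 (SE 0.36, edgeR adjusted p = 0.0234), with a range of adjusted p from 1.87e-06 to 0.120 over the alternatives, the highest without Normal 2. The TA livers gave 378.3, 104.7 and 100.3 CPM for Alas1, so that TA 1 was above every other liver. Hepatocyte markers, 10 of 10, were also below 0 in Model VS Normal with a median of -0.91, and the part of hepatocyte content in the outputs was not tested.

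For TA VS Model 10 of 12 outputs were above 0 with a median of 1.09, and 3 were DEGs, all higher (2.11% of all genes). After adjustment 0 passed, beside 0% of all genes. Without TA 1, 8 of 12 were above 0 with a median of 0.56 and 0 were DEGs. Hepatocyte markers, 9 of 10, were also above 0 in this comparison with a median of 0.95, and their part in it was not tested. Lpin1, a phosphatidate phosphatase and coactivator raised by fasting and glucocorticoids, was read at 4.13, 11.4 and 16.6 CPM in Model and 176.1, 23.9 and 25.7 in TA livers, against 24.7, 67.6 and 16.9 in Normal livers. Its log2 fold change was 2.82 (SE 0.88, adjusted p = 0.260), and 1.23 (adjusted p = 0.446) without TA 1. Usp2, a deubiquitinase under clock control, was read at 1.75, 3.09 and 4.17 CPM in Model and 21.3, 7.44 and 4.55 in TA livers, with a log2 fold change of 1.90 (SE 0.62, adjusted p = 0.264), and 1.01 without TA 1. Alas1, the other DEG here, was at 1.70 (SE 0.58, adjusted p = 0.267), and 0.78 without TA 1. For all 3 genes TA 1 was the highest liver, as it was for Per1 among the TA livers. Nampt, the rate-limiting enzyme of NAD salvage, was at 0.99 in TA VS Normal (SE 0.21, adjusted p = 0.125). Ppara, the nuclear receptor for fatty acids, was at -1.15 (SE 0.42, adjusted p = 0.418). Outputs in this comparison were 6 above and 6 below 0, with a median of 0.13.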

How the data were processed

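The clock genes and the gene lists used here were chosen with earlier results of these data known. Per the study's methods, the authors trimmed reads with Trimmomatic and Cutadapt, mapped them with STAR, counted them with HTSeq-count and computed the FPKM. The methods name a human and the submitters' processing notes a mouse genome (mm9), while the gene names are those of rat (90.9% matched RefSeq), so the mapping reference is uncertain. The authors deposited raw counts, normalized signal (counts divided by DESeq2 size factors, not used in tests) and FPKM per gene in 2 tables, of 16938 and 16948 genes. Their log2 fold changes and p-values were not used. The labels give no dose for the TA libraries, which were taken as 1 group at 3 mg/kg. Groups have 3 livers each, and p-values measure the spread between these samples, whose labels number them without naming the animals.

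Counts were tested with edgeR 4.0.16 (R 4.3.3) by quasi-likelihood, with TMM scaling, filterByExpr and Benjamini-Hochberg adjustment, on the 2 groups compared. TA VS Normal used genes in both tables (16730). Every exact permutation test was two-sided, over the 9 livers or within groups, and correlations used log2 CPM with a prior count of 2. Alternatives were DESeq2 1.42.0, limma 3.58.1 voom with sample weights, DESeq2 size factors, library totals, no filter, the newer quasi-likelihood form, 1 fit over all 9 libraries, a block for the replicate number, and omission of each liver in turn. Same-numbered Normal and TA livers deviated together from their group means (r = 0.233 to 0.452 across genes, against -0.395 to 0.141 for unlike numbers). The labels pair no rats, so any pairing is inferred from these data. No main fit used it, and the block is an alternative only. The edgeR fits and the correlation test were tested on simulated data. Genes outside the clock were named by a fixed rule: every tested regulator (except an item not reported here), list genes past an adjusted p of 0.05 or else the 2 with the smallest p, and the 5 genes most and least like Arntl and Dbp. Promoter sequences are RefSeq's, build GRCr8.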

Additional observations from a re-analysis of the deposited data

How the results depend on the processing

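Depth ran from 13156735 to 18090405 counts a library. The TMM factors did not overlap between groups, at 0.816 to 0.859 in Normal, 0.898 to 0.995 in TA and 1.05 to 1.69 in Model livers, so the scaling went with the group. With 3 livers a group, leaving out a single liver moved many values. Dbp and Per3 in TA VS Model kept their direction and an unadjusted p under 0.05 in all 14 alternatives. The count of members past an adjusted p of 0.05 was 2 with DESeq2 and 1 with limma voom there, where all genes past it rose from 0 to 541 and 169; in Model VS Normal voom gave 1 such member and 2 members among the DEGs. DESeq2 gave no p for Dbp in Model VS Normal and TA VS Normal. All genes past an adjusted p of 0.05, 1002 in Model VS Normal, were 2654 with DESeq2, 3433 with voom, 1980 with library totals and 1757 with all 9 libraries. In TA VS Normal the 32 became 360, 127, 56 and 14 in that order, and 76 with no filter. DEGs of TA VS Model, 1571, were 2447 with library totals. Members among the DEGs of TA VS Normal, 2, were 1 with DESeq2, 0 with voom and 1 with library totals. The cause of these moves was not tested.

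Library totals shifted the median of all genes by 0.65, -0.48 and 0.18 in Model VS Normal, TA VS Model and TA VS Normal, and the share of DEGs that were higher to 94.4%, 3.64% and 89.8% from 2112 of 2818, 270 of 1571 and 516 of 640. Directions then turned for Arntl (0.35), Clock (0.41), Nr1d1 (0.10), Nr1d2 (0.21) and Dbp (0.41) in Model VS Normal, for Clock (-0.086), Per1 (-0.33), Nr1d1 (-0.29) and Tef (-0.28) in TA VS Model, and for Npas2 (0.087) in TA VS Normal. Voom turned Per2 (0.27), Nr1d2 (0.057) and Dbp (1.83) in Model VS Normal and Per1 (-0.17) and Nr1d1 (-0.61) in TA VS Model.

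With the replicate number as a block, TA VS Normal gave 203 genes past an adjusted p of 0.05 and 1 member among the DEGs. Same-numbered livers deviated together less in the other comparisons (r = -0.05 to 0.21), where the block turned Dbp (1.19) in Model VS Normal and Per1 (-0.23) and Nr1d2 (0.0069) in TA VS Model and changed no count of member calls.

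Leaving out 1 liver gave 0 to 2537 genes past an adjusted p of 0.05 and 0 to 2 members among the DEGs in Model VS Normal, 0 to 1 and 2 to 3 in TA VS Model (DEGs 792 to 2792) and 1 to 61 and 0 to 3 in TA VS Normal, and 2061 to 3917 and 525 to 918 DEGs in the first and last. Directions turned within ranges of -0.68 to 0.21 for Arntl, -0.43 to 0.13 for Clock and -0.87 to 2.21 for Dbp in Model VS Normal. They turned within -0.52 to 0.50 for Nr1d1, -0.29 to 0.23 for Nr1d2 and -0.86 to 0.39 for Per1 in TA VS Model, and within -0.043 to 0.34 for Clock, -0.32 to 0.17 for Npas2 and -1.01 to 0.021 for Nr1d1 in TA VS Normal.

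Of the relations to Arntl, deviations from group means gave r = 0.92 for Clock, -0.81 for Dbp, -0.68 for Per3 and 0.074 for Per1, and library totals 0.59 for Npas2, -0.52 for Per3, -0.18 for Nr1d1 and -0.49 for Nr1d2. Without Model 1 and Normal 3 together r was 0.58 for Clock, 0.44 for Npas2, -0.57 for Per3, 0.068 for Per2, -0.27 for Nr1d1, -0.66 for Nr1d2 and 0.21 for Tef. Leaving out 1 liver gave 0.82 to 0.96 for Clock, 0.60 to 0.87 for Npas2, -0.91 to -0.86 for Dbp, -0.89 to -0.73 for Per3, -0.28 to 0.49 for Nr1d1, -0.80 to 0.38 for Nr1d2, -0.46 to 0.13 for Per1, -0.58 to 0.030 for Per2 and -0.46 to 0.33 for Tef.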

Other observations

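Signals that can set the liver clock, feeding, glucocorticoids and body temperature, have their own response genes, which were read in the same livers. Of 16 measured genes of the fasting and feeding response, 15 had a log2 fold change below 0 in Model VS Normal (median -1.12) and 15 above 0 in TA VS Model (median 0.96). With library totals these tallies were 10 below 0 and 12 above 0. An adjusted p under 0.05 was held by 0 of them in either comparison, beside 7.87% and 0% of all genes. Pklr, the liver pyruvate kinase of glycolysis, was at -1.70 (SE 0.51, edgeR adjusted p = 0.0767) and Angptl4, an inhibitor of lipoprotein lipase raised by fasting, at -1.34 (SE 0.47, adjusted p = 0.112) in Model VS Normal. In TA VS Model, Cpt1a, which admits fatty acids to mitochondria, was at 1.33 (SE 0.51, adjusted p = 0.287) and Srebf1, a driver of lipid synthesis, at 1.01 (SE 0.47, adjusted p = 0.337). The 2 smallest p-values of TA VS Normal belonged to Tat, at -0.66 (adjusted p = 0.559), and Pklr, at -0.68 (adjusted p = 0.719). Hepatocyte markers had the same signs, with medians of -0.91 and 0.95 in Model VS Normal and TA VS Model, and their part was not tested.

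Of 10 glucocorticoid response genes 0 passed after adjustment in any comparison, the count at an unadjusted p under 0.05 being 1 in Model VS Normal (28.9% of all genes), 1 in TA VS Model (15.6%) and 0 in TA VS Normal (9.43%). In Model VS Normal Errfi1, a feedback inhibitor of the EGF receptor, was at -1.67 (SE 0.68, adjusted p = 0.149) and Tat, tyrosine aminotransferase, at -1.61 (SE 0.71, adjusted p = 0.180). Klf9, a factor that responds rapidly to glucocorticoids, was at 1.50 in TA VS Model (SE 0.45, adjusted p = 0.258) with overlapping groups, and Errfi1 at 1.17 (adjusted p = 0.402). Errfi1 was at -0.54 in TA VS Normal (adjusted p = 0.545).

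Temperature response genes gave 2 calls of 6 tested in Model VS Normal, where 7.87% of all genes had an adjusted p under 0.05. The list had no common direction, with 3 genes above 0 and 3 below 0 in Model VS Normal (median log2 fold change -0.23). The tally was the same in TA VS Model (median 0.21). Markers of hepatocytes were lower and those of stellate cells and cholangiocytes higher in summed CPM in every Model liver than in every Normal liver, and their part in these values was not tested. Rbm3, an RNA-binding protein raised by cold, was read at 30.3, 23.3 and 50.1 CPM in Normal, 130.8, 121.6 and 68.0 in Model and 40.4, 26.9 and 54.2 in TA livers. Rbm3 was higher in Model livers by 1.63 on the log2 scale (SE 0.38, edgeR adjusted p = 0.0426, range 0.00165 to 0.174 over the alternatives, the highest without Normal 2). Hspa8, a chaperone of the heat shock family, was read at 33.7, 27.0 and 21.8 CPM in Normal, 6.37, 10.6 and 14.4 in Model and 11.8, 9.64 and 35.1 in TA livers. Hspa8 was lower in Model livers, at -1.40 (SE 0.34, edgeR adjusted p = 0.0460, range 0.00336 to 0.164 over the alternatives). In TA VS Model Rbm3 was at -1.40 (SE 0.37, adjusted p = 0.249) and Hsph1, another chaperone, at 0.91 (SE 0.37, adjusted p = 0.308), and neither passed. Between TA and Normal livers Hspa8 was at -0.58 and Rbm3 at 0.20. Hspa8 has near-identical pseudogene copies, so the counting may have divided its reads.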
